A study of Mus musculus with 32 samples.

Results

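Parent-of-origin bias was measured in the adult preoptic area (POA), the region at the front of the hypothalamus that holds circuits of mating, parental care and body temperature. All autosomal genes whose pools averaged 20 or more informative reads were taken, from a pair of tables that count reads of either allele by transcript and by genome position. These were 11511 of the 13916 autosomal genes listed for the POA, and 53306 single bases passed the same minimum. Mice of 5 weeks were first-generation offspring of C57BL/6J (B6), the standard laboratory strain, and CAST/EiJ (CAST), an inbred strain of wild origin. F1i mice had CAST mothers and B6 fathers, and F1r mice had B6 mothers and CAST fathers. Each cross gave a male and a female pool, each of RNA from 8 to 10 animals of that sex, and the labels name no treatment. The 4 pools came from 8 of the 32 libraries of the series, 2 technical replicates for each pool. Beside them stand the 4 pools of prefrontal cortex (PFC) from the same crosses and age, used below as the other brain region.

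Genomic imprinting marks some genes in the egg or sperm so that the offspring reads mainly the copy of 1 parent. Imprinted genes lie in clusters, each governed by a control region whose DNA is methylated on a single parental chromosome, and a cluster often holds genes read from opposite parents. In the hypothalamus several of them are known for roles in growth, feeding and care of young. A reciprocal cross tells the parent from the strain: an imprinted gene changes the strain it is read from when mother and father are exchanged.

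The maternal share used throughout is the percent of reads with the mother's base among all informative reads of a gene, those that cover a strain-specific base (SNP). In F1i this counts CAST reads and in F1r B6 reads. Pool values are given in the order F1i male, F1i female, F1r male, F1r female, and means are ± SD over these 4 pools. The log2 value ± SE is the CAST to B6 ratio of F1i over that of F1r. A share of 75% in both crosses gives 3.17, and a negative value means that the father's allele was higher. Calls needed an edgeR quasi-likelihood p below 0.05 after Benjamini-Hochberg adjustment over all genes, and a mean share above 50% in each cross (maternal) or below 50% in each (paternal). Each pool averages its animals, so the p-values measure the spread between pools and not between animals. With so few pools, the spread of each gene was moderated toward that of all tested genes, weighted as 15.8 prior degrees of freedom. The sexes give 1 pool each per cross.

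Depth differed between the sexes: the male pools held 3495640 and 3954383 informative reads in tested genes and the female pools 7057754 and 7476708. The median maternal share over genes was 49.0%, 49.2%, 50.8% and 50.6%. The tissue label was checked on markers. Of 12 preoptic and hypothalamic markers, 6 were higher in every POA pool than in every PFC pool and 6 were listed in the POA alone. Ecel1, a peptidase of hypothalamic neurons, lay at 348 to 378 informative reads per 1000000 in the POA and 0.966 to 1.53 in the PFC. Of 8 cortical excitatory markers, 3 were lower in the POA, 2 were listed in the PFC alone and 3 were not listed. The share of all genes ordered in these ways was not counted, so the marker counts stand without a background. Slc17a7, the vesicular glutamate transporter of cortical neurons, lay at 0.754 to 1.57 per 1000000 against 1262 to 2085. In such tissue samples, fewer cells of a type and less RNA per cell cannot be told apart.

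The reads of a few single SNPs show what the parental comparison rests on. Each line below gives 29 bases of the NCBIM37 (mm9) reference, which is the B6 sequence, on the strand of the named gene, and the capital is the B6 base at the SNP. The pairs were chosen because both SNPs of a pair lie in 1 locus and had different parental shares, as described further on.
Gnas coding base near the start, chr2:174110817-174110845 (+): gagcgcaaggaggaAaacaggcagccccg
Gnas coding base near the end, chr2:174171490-174171518 (+): gcgactcccgagccGggagaggacccacg
Inpp5f earlier coding base, chr7:135828752-135828780 (+): gacgagaagttccaCgggggctgggccct
Inpp5f later coding base, chr7:135838090-135838118 (+): gggccaatagattaCattctcccaagctg
Copg2 coding exon, chr6:30760410-30760438 (-): ctgggacccttgttTaagtcttctgagcc
Copg2 intron, chr6:30752885-30752913 (-): agcctgccctcaagTactcccctattgga
Herc3 coding exon, chr6:58868880-58868908 (+): gccctcgacaactaTgagggttttagttt
Nap1l5 in a Herc3 intron, chr6:58856510-58856538 (-): gaggctgcagctggCgcaactgggggtcc
Trappc9 coding exon, chr15:72515763-72515791 (-): cgcagtggtgaggcGagcgtggagggcct
Peg13 in a Trappc9 intron, chr15:72637675-72637703 (-): gacaaggcatcctcGtttgggcagcagtg

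The comparison of the crosses asked which genes of the POA were read unequally from mother and father. Of the 39 tested genes with a mean share under 10% or over 90%, 21 stood on lists of known imprinted genes. Of 75 genes on these 3 lists, 20 were not listed in the POA, 7 fell under the minimum of reads and 48 were tested. Of these 48, 16 were called maternal, against 0.313% of all tested genes, and 20 were called paternal, against 0.843%. The lists were chosen with earlier results of these data known, so this excess is no independent support. In either direction the call rate over all genes was 1.16%, that is 133 gene symbols, with 131 distinct sets of counts. The adjusted p alone was passed by 195 genes. Of these, 62 were not called because the mean shares of the 2 crosses did not lie on the same side of 50%. The split of 36 maternal to 97 paternal calls was 27 to 30 with DESeq2 and 22 to 25 in a fit that kept X-linked genes. On the list of maternally expressed genes 12 of 19 tested members were called maternal, none paternal, with a median share of 72.1%. On the list of paternally expressed genes 18 of 19 were called paternal and 1, Igf2, maternal, with a median of 0.845%. The list of isoform- or tissue-dependent genes had 10 tested members, 3 of them maternal calls and 2 paternal. The median share of all tested genes was 49.9%.

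**Figure D1:**
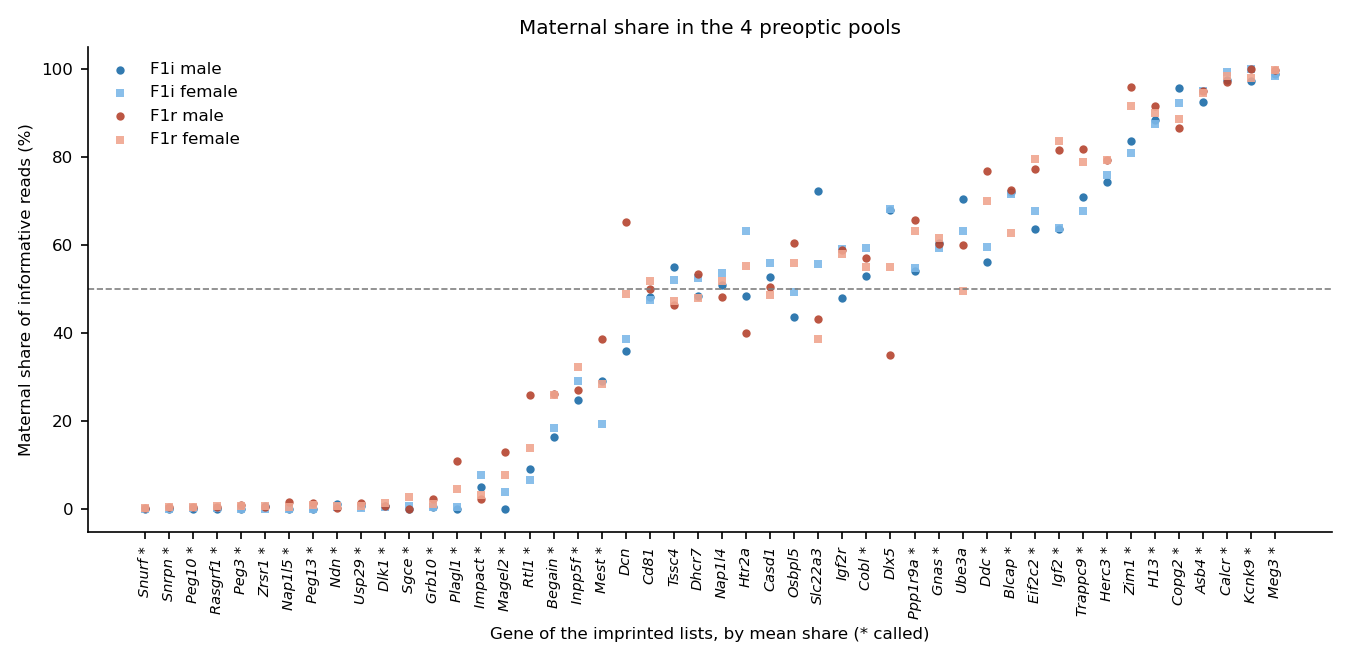
Maternal share (y axis, percent of informative reads) in each of the 4 preoptic pools for the 48 tested genes of the imprinted lists (x axis, ordered by mean share). Points are pools, an asterisk marks a called gene, the dashed line is an even share of 50%, and the calls run from near 0 through partial shares such as Mest at 28.9% and Herc3 at 77.3% to Meg3 at 99.2%.

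On chromosome 12 the Dlk1-Dio3 domain was read from opposite parents gene by gene. Meg3, the long noncoding RNA that marks the maternal chromosome (chr12:110779211-110809936), had maternal shares of 98.9%, 98.4%, 99.8% and 99.8%, a mean of 99.2% ± 0.690 and a log2 value of 15.01 ± 0.12 (adjusted p = 4.05e-24). All 4 pools were nearly wholly maternal, and both F1r pools lay above both F1i pools. Of 83 tested bases across Meg3, 80 were called maternal, against 0.482% of all tested bases. The other 3 lay in introns, with 10% to 35% maternal in F1i and 85% to 100% in F1r, so that these followed the B6 allele in each cross. All 16 tested bases across Rian, the noncoding RNA that hosts small nucleolar RNAs, and all 7 across Mirg, which hosts microRNAs, were called maternal too, although neither symbol is listed as a transcript.

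Dlk1, a transmembrane protein related to the Notch ligands (chr12:110691033-110701546), had only 0.777%, 0.662%, 0.824% and 1.38% maternal reads. Its log2 value was -13.45 ± 0.27 (adjusted p = 1.59e-17), and 13 of 13 bases were called paternal, against 0.878% of all bases. Rtl1, a retrotransposon-derived gene, was read more weakly, with 22 to 45 reads per pool. Its maternal shares were 9.09%, 6.67%, 25.9% and 13.9% (log2 -5.62 ± 0.66, adjusted p = 2.22e-05), so the pools did not overlap an even share though they spread widely. Begain, a postsynaptic scaffold gene at the edge of the domain (chr12:110270397-110291589), was partly paternal. Its maternal shares were 16.5%, 18.5%, 26.3% and 26.0%, its log2 value -3.71 ± 0.13 (adjusted p = 1.74e-13), and 7 of 7 bases were called paternal at 15.2% to 24.9%. The F1r pools lay above the F1i pools, all of them far under 50%.

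Several cDNA accessions of chromosome 12 that no list holds were maternal as well. AK017440 was 99.3% ± 0.366 maternal at 5426 to 9882 reads per pool. AJ517767 was 99.3% ± 0.494 maternal. AF498300 was 99.5% ± 0.616 maternal, AF498301 97.5% ± 2.52 and AF498302 96.2% ± 4.10. AK157178 had no paternal read among 112, 298, 148 and 547. A paternal count of 0 leaves its log2 value dependent on the prior count. AK077315 (chr12:110978158-110979504), which lies inside Mirg, was 99.5% ± 0.683 maternal. These entries were named from the most significant calls outside the lists, and for the others of chromosome 12 the files give no position.

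The Prader-Willi domain of chromosome 7 was read almost wholly from the father. Snrpn, a spliceosomal protein gene (chr7:67127388-67285105), had maternal shares of 0.133%, 0.157%, 0.524% and 0.541% at 1505 to 2957 reads (log2 -16.87 ± 0.17, adjusted p = 1.06e-22). Snurf, which shares a transcript with it, had 0 of 1450, then 0.123%, 0.254% and 0.333%. A count of 0 of 1450 allows a share of up to 0.207%. These genes share reads and are 1 measurement rather than a pair. Ndn, the neuronal MAGE-family gene necdin (chr7:69493163-69494814), had 1.23%, 0.629%, 0.326% and 0.837% (log2 -14.00 ± 0.23, adjusted p = 3.99e-19). Magel2, a related ubiquitin ligase cofactor, was less deep and less even, with 0 of 46, 3.96%, 7 of 54 and 7.83% (log2 -8.31 ± 0.56, adjusted p = 5.17e-09). BC070450 (chr7:67083456-67085842), an unlisted transcript that lies 41546 bases from Snrpn on the side of Ube3a, had no maternal read in 3 pools and 0.408% in the F1r female pool, a paternal call with log2 -18.24 ± 0.68. DOKist4 (chr7:68234549-68235523), 949444 bases from Snrpn, had 15.4%, 13.3%, 6.06% and 4.23% maternal reads at 26 to 71 reads.

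Ube3a, the ubiquitin ligase of Angelman syndrome (chr7:66484122-66562097), was not called. Its maternal shares were 70.6%, 63.2%, 27 of 45 reads and 49.6%, on 45 to 137 reads (log2 1.12 ± 0.37, adjusted p = 0.251). Both F1r pools overlapped an even share, with Clopper-Pearson 95% intervals of 44.3% to 74.3% in males and 41.0% to 58.3% in females. These intervals cover counting error only. Its SNPs differed: the base at chr7:66484248 in the 5′ UTR was called maternal at 67.6%, while the coding base at chr7:66541539 had a share of 39.2% and was not called. Mkrn3 and Peg12 of the same domain, and Atp10a, had too few reads to test.

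At the Peg3 domain near the start of chromosome 7, Peg3, a zinc finger gene tied to maternal care in mice (chr7:6656603-6683132), had maternal shares of 0.106%, 0.159%, 1.04% and 0.708% at 3772 to 7486 reads. Its log2 value was -16.34 ± 0.13 (adjusted p = 5.40e-24) and 28 of 29 bases were called paternal. Usp29, a deubiquitinase gene read from the opposite strand, had 0.774%, 0.270%, 1.56% and 0.771%, and 8 of 8 bases were paternal. Zim1, the zinc finger gene beside Peg3 (chr7:6628154-6649161), was maternal with 83.6%, 81.0%, 95.9% and 91.7% (log2 5.98 ± 0.32, adjusted p = 1.51e-10). The F1r pools were higher than the F1i pools in both Peg3 and Zim1, so the difference between crosses did not follow the favoured parent.

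On chromosome 6 the Peg10 cluster held genes of each direction. Peg10, a retrotransposon-derived gene (chr6:4697306-4710514), had 0 of 1261, 0.334%, 0.670% and 0.522% maternal reads, and 11 of 11 bases were called paternal. Its neighbour Sgce, which encodes epsilon-sarcoglycan, had 0 of 55, 0.877%, 0 of 37 and 2.94% (log2 -12.48 ± 0.70, adjusted p = 3.05e-10). Asb4, a subunit of ubiquitin ligases that is abundant in the hypothalamus (chr6:5333386-5383022), was maternal in 207 of 224, 554 of 583, 342 of 360 and 530 of 560 reads, a mean of 94.3% ± 1.25 (log2 8.21 ± 0.23, adjusted p = 3.40e-15). Calcr, the calcitonin receptor of preoptic neurons (chr6:3635677-3714713), was maternal at 97.5%, 99.3%, 97.1% and 98.5% on 122 to 293 reads (log2 11.76 ± 0.44, adjusted p = 3.63e-13). Calcr was listed in the POA and not in the PFC. All 10 bases of Asb4 and all 5 of Calcr were called maternal. Ppp1r9a, the actin-binding synaptic scaffold neurabin (chr6:4853004-5115661), leaned to the mother with 54.2%, 54.8%, 65.7% and 63.3% (log2 1.12 ± 0.09, adjusted p = 5.36e-08). In it both F1r pools lay above both F1i pools, and 3 of 32 bases were called. Casd1 at the edge of the cluster was even at 52.0% ± 3.19 (adjusted p = 0.910).

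Copg2 and Mest lie tail to tail on chromosome 6 and had opposite biases. Copg2, a coatomer subunit gene (chr6:30697554-30846794), was maternal at 95.6%, 92.2%, 86.6% and 88.6% (log2 6.65 ± 0.25, adjusted p = 3.85e-13), with the F1i pools the higher. Its 4 coding bases had shares of 90.3% to 94.3%, but 17 bases in its intron were called paternal at 0 to 0.906%. At the coding base printed above, 39 of 39, 83 of 88, 37 of 42 and 82 of 90 reads were maternal. At the printed intronic base they were 1 of 400, 2 of 1055, 3 of 406 and 1 of 951. The intron holds the transcript AF217545 (chr6:30755116-30757359), itself 0.273% ± 0.139 maternal with log2 -16.92 ± 0.20, on the other strand from Copg2. Mest, which encodes a hydrolase-fold protein of mesoderm (chr6:30673547-30698457), was partly paternal with 29.2%, 19.4%, 38.7% and 28.4% (log2 -2.79 ± 0.40, adjusted p = 0.000315). Its first SNP, base 76 of the transcript, had no maternal read among 63, which allows a share of up to 4.76%. The 2 later SNPs together had 85 of 242 maternal reads, 35.1% with an interval of 29.1% to 41.5%. The call on Mest was lost without the F1i female pool (adjusted p = 0.226) or the F1r female pool (adjusted p = 0.0674).

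Herc3 and Nap1l5 are nested on the same chromosome. Herc3, a HECT-domain ubiquitin ligase gene (chr6:58781459-58870392), was maternal at 74.4%, 76.0%, 79.4% and 79.2% (log2 3.55 ± 0.11, adjusted p = 1.96e-14). The pools differed little, with an SD of 2.48 percentage points. Nap1l5, a nucleosome assembly protein gene in a Herc3 intron (chr6:58855228-58857120), had 0.144%, 0.0549%, 1.71% and 0.657% maternal reads. Across Herc3, 14 of 19 bases were called maternal. Of the others, 3 bases of the UTR were not called and followed the B6 allele, at 10% to 44% maternal in F1i and 91% to 97% in F1r. The remaining 2 were paternal: the Nap1l5 base at 0.395% and a base annotated as coding in Herc3 (chr6:58853317) at 1.04%.

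The domain of chromosome 15 had the same nested form. Peg13, a noncoding RNA in an intron of Trappc9, had maternal shares of 0.206%, 0.168%, 1.52% and 1.11% at 3395 to 7749 reads (log2 -15.39 ± 0.13, adjusted p = 5.40e-24), and all 32 of its bases were paternal, none above 6.44%. Trappc9, a vesicle trafficking gene (chr15:72420051-72891634), was maternal at 71.0%, 67.7%, 81.9% and 78.9% (log2 3.16 ± 0.12, adjusted p = 6.36e-13). Its 18 exonic bases, spread over the whole gene, were all called, at 70.8% to 80.3%. Kcnk9, a leak potassium channel gene (chr15:72342549-72376709), was almost wholly maternal at 97.2%, 100%, 100% and 98.1%, read at 1 SNP with 36 to 103 reads (log2 12.61 ± 0.77, adjusted p = 1.26e-09). Eif2c2, the Argonaute gene on the other side of Trappc9 (chr15:72932055-73015377), was maternal at 63.6%, 67.8%, 77.4% and 79.7% (log2 2.88 ± 0.36, adjusted p = 5.58e-05). The call on Eif2c2 was lost without the F1i female pool (adjusted p = 0.0686), while all 10 of its bases in the genome table were called, at 71.3% to 78.4%. In Trappc9 and Eif2c2 both F1r pools exceeded both F1i pools.

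**Figure D2:**
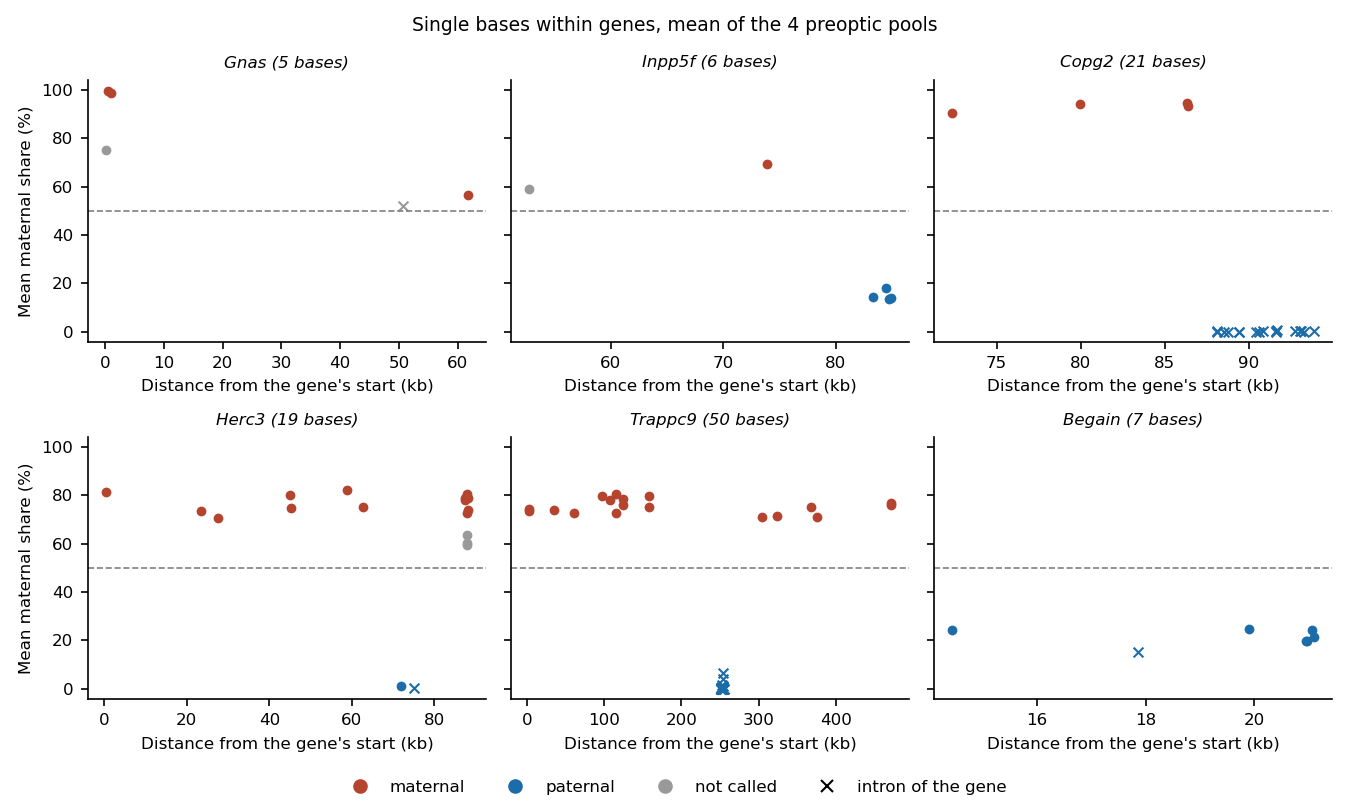
Mean maternal share of the 4 preoptic pools (y axis, percent) at each tested base of 6 genes, by distance from the start of the gene in its own direction (x axis, kb). Colours give the call, crosses are bases in an intron of the gene, and Gnas, Inpp5f, Copg2, Herc3 and Trappc9 each hold bases of clearly different share while the 7 bases of Begain lie together at 15.2% to 24.9%.

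Chromosome 2 showed loci in which the share depended on the transcript. Gnas, which encodes the stimulatory G protein alpha subunit and several other products (chr2:174109821-174172245), was 60.4%, 59.4%, 60.4% and 61.5% maternal as a whole (log2 1.22 ± 0.07, adjusted p = 2.28e-10), with the lowest SD over pools, 0.863, of the 15 called list members whose mean share lay between 10% and 90%. The total mixed unlike SNPs. At the coding base near its start, where the antisense RNA Nespas overlaps, the reads were maternal in 177 of 181, 227 of 235, 162 of 162 and 287 of 287. At the base near its end, which carries most of the reads, 51.7%, 53.4%, 60.6% and 60.3% were maternal (mean 56.5%, log2 0.76 ± 0.11, adjusted p = 1.94e-07).

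H13, a signal peptide peptidase gene (chr2:152495197-152534406), was maternal in 311 of 352, 605 of 692, 362 of 395 and 693 of 770 reads, a mean of 89.4% ± 1.86 (log2 6.11 ± 0.18, adjusted p = 5.21e-15). A second transcript listed as Hm13, a synonym of H13, was split along its length. Its first SNP at base 342 was maternal in 175 of 224 reads, 78.1%, with an interval of 72.1% to 83.4%. The 8 SNPs after it were maternal in 45 of 382 reads, 11.8%, with an interval of 8.72% to 15.4%. By pool these later SNPs stood at 6.06%, 8.15%, 16.1% and 16.8%, lower in F1i than in F1r. Mcts2, the retrogene in an intron of H13, had no maternal read among 41 but stayed under the minimum of reads. Blcap, a gene of apoptosis control that surrounds Nnat (chr2:157382098-157397010), was maternal at 72.1%, 71.6%, 72.5% and 62.7% (log2 2.36 ± 0.27, adjusted p = 1.48e-05).

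Inpp5f, an inositol phosphatase gene (chr7:135754842-135839939), was likewise split. Its total was paternal with 24.9%, 29.2%, 27.2% and 32.3% maternal reads (log2 -2.62 ± 0.18, adjusted p = 1.03e-08). The earlier coding base printed above was called maternal at 71.0%, 63.0%, 72.2% and 71.7%, a mean of 69.5%. The later coding base had 15.1%, 11.1%, 19.8% and 11.8%, a mean of 14.4%, and 3 bases of the 3′ UTR had means of 13.7% to 18.2%. A transcript of the same gene listed as mKIAA0966, which holds only the earlier SNPs, was maternal at 67.6% ± 3.38 (log2 2.21), a call lost without the F1i female pool (adjusted p = 0.271) or the F1r female pool (adjusted p = 0.142). The gene total sums SNPs that differ in direction.

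On chromosome 11, Grb10, an adaptor that restrains insulin signalling (chr11:11830511-11938686), was paternal at 0.625%, 0.568%, 2.29% and 1.23% maternal (log2 -13.19 ± 0.39, adjusted p = 7.75e-15). Its neighbours leaned to the mother. Ddc, the decarboxylase of dopamine and serotonin synthesis (chr11:11714104-11798047), had 56.2%, 59.6%, 76.9% and 70.1% (log2 1.91 ± 0.37, adjusted p = 0.00668). Cobl, an actin nucleator gene (chr11:12136611-12364963), had 152 of 287, 307 of 517, 179 of 314 and 316 of 575 maternal reads, a mean of 56.1% ± 2.75 (log2 0.73 ± 0.17, adjusted p = 0.0291). Neither of these neighbours was called when any 1 of the 4 pools was left out. The adjusted p then lay at 0.0680 to 0.446 for Ddc and at 0.126 to 0.833 for Cobl. Zrsr1, a splicing factor retrogene (chr11:22873215-22876498), was paternal with 0.219% to 0.895% maternal reads.

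Other paternal genes stood alone. Rasgrf1, a Ras exchange factor of neurons (chr9:89804613-89921814), had 0.204%, 0.377%, 0.602% and 0.682% maternal reads (log2 -15.51 ± 0.14, adjusted p = 2.74e-23), with 17 of 17 bases called. Plagl1, a zinc finger transcription factor (chr10:12810497-12851500), had 0 of 112, 0.581%, 10.9% and 4.61% (log2 -11.46 ± 0.55, adjusted p = 1.92e-11), so its maternal reads came from the F1r pools in the main. Impact, a translation regulator on chromosome 18, had 5.09%, 7.88%, 2.32% and 3.35% (log2 -8.82 ± 0.16, adjusted p = 1.55e-18), with the F1i pools higher. Igf2, the fetal growth factor (chr7:149836673-149852721), stood on the paternal list but was maternal, with 28 of 44, 23 of 36, 58 of 71 and 36 of 43 reads, or 63.6%, 63.9%, 81.7% and 83.7%. Its log2 value was 3.03 ± 0.46 (adjusted p = 0.000558), and it was lost without the F1i male pool (adjusted p = 0.0601). In the F1i pools the intervals of 47.8% to 77.6% and 46.2% to 79.2% reached an even share.

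Of the 12 list members that were tested and not called, Igf2r, the receptor that clears Igf2, had 48.0%, 59.1%, 58.8% and 58.1% (log2 0.81 ± 0.26, adjusted p = 0.208). Dlx5, a homeobox gene of GABA neurons, had 68.0%, 68.3%, 35.1% and 55.1% (adjusted p = 0.498). In 4 genes beside Cdkn1c on chromosome 7 the mean shares lay near even: Cd81 49.4% ± 1.92, Tssc4 50.2% ± 4.02, Nap1l4 51.2% ± 2.28 and Osbpl5 52.4% ± 7.40, with adjusted p from 0.912 to 0.998. Slc22a3, Dcn, Htr2a, Dhcr7 and Casd1 were not called either, and the first 3 of these had only 23 to 68 reads per pool. At that depth a modest bias was not detectable.

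Among strongly biased list members the few reads of the weaker allele differed between the crosses. Of the 36 called list members, 21 had a mean share under 10% or over 90%. In 12 of these 21 both F1r pools had a higher maternal share than both F1i pools, and in 2 the reverse held. Snrpn and Snurf, which share reads, are counted separately here. The same order was not counted over all tested genes, so the 12 and the 2 stand without a background. All tested genes leaned the same way, with median shares of 49.0% and 49.2% in F1i against 50.8% and 50.6% in F1r. The strain term of the fit, which compares CAST with B6 after the parental bias is taken out, was below 0, toward B6, in 16 of 21, with a median log2 of -0.70. It was below 0 in 56.9% of all tested genes, with a median of -0.04. The strain term passed an adjusted p of 0.05 in 10 of the 21, against 29.0% of all tested genes. Of these 10, 8 lay toward B6, and Impact and Copg2 lay toward CAST.

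**Figure D3:**
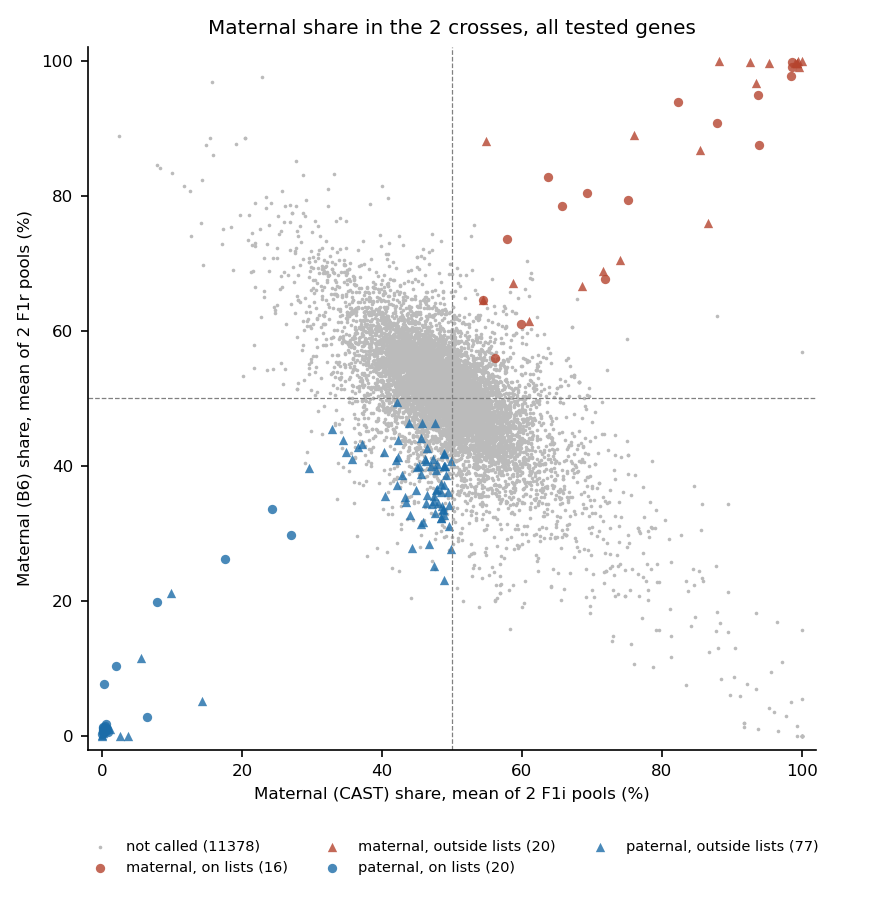
Mean maternal share in the 2 F1r pools (y axis, B6 percent) against that in the 2 F1i pools (x axis, CAST percent) for all 11511 tested genes. The 36 maternal and 97 paternal calls lie at the upper right and the lower left, while the 11378 genes not called run along the falling diagonal, where the same strain is favoured in both crosses.

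Outside the lists 20 symbols were called maternal and 77 paternal. Some of them name list genes again: Neurabin is Ppp1r9a, mKIAA0966 is Inpp5f and Hm13 is H13. AK077315, AF365932 and AF217545 lie within the list genes Mirg, Usp29 and Copg2. Pak1 and Paka share their coordinates. In 19 of the 20 maternal symbols all 4 pools lay above 50%, and their median share was 90.1%. The deepest was Atpase6, listed on chromosome 1 (chr1:24620814-24621627) under the symbol of a mitochondrially encoded ATP synthase subunit, at 99.7% ± 0.193 maternal on a mean of 105529 reads per pool. Mitochondria are inherited from the mother, and a nuclear copy and the mitochondrial gene cannot be told apart here. The other unlisted maternal entries of chromosome 12 are described above. 5830418K08Rik on chromosome 9 (chr9:15121359-15162232), far from any listed gene, was maternal at 91.9%, 79.1%, 90.7% and 82.8% (log2 5.24 ± 0.35, adjusted p = 4.10e-09). BC061511 on chromosome 16 was maternal at 77.6%, 74.3%, 86.7% and 91.3% on 45 to 327 reads (log2 4.74 ± 0.35, adjusted p = 2.07e-08). Both of these were called without any 1 of the 4 pools.

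The 77 unlisted paternal calls were of 2 kinds. In 9 the mean share was under 20%, and these all lay on chromosomes 6 and 7. Besides AF217545, BC070450 and DOKist4 they include AF365932 (chr7:6914059-6916009), which lies in Usp29, at 1.07% ± 0.960. AK080655 was 1.27% maternal as a mean, with 2.94%, 2.13%, 0 and 0 by pool. AK083195 was 1.83% ± 2.23 maternal. AK045535 was 8.58% ± 4.68 and AK078191 15.5% ± 7.67. AK035901 had no maternal read among 14, 30, 18 and 32. Each of the 9 was called without any 1 of the pools.

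The rest were weak and concentrated on few chromosomes. The median share of the 77 was 41.1%, and 50 lay between 40% and 60%. On chromosome 7 there were 49 among 886 unlisted tested genes, on chromosome 18 10 among 355 and on chromosome 3 7 among 555. The F1r female pool had the lowest share in 58 of the 77. Among the chromosome 7 genes with a mean share of 30% or more, 41 in number, the median was 46.1% in F1i male, 47.5% in F1i female, 43.9% in F1r male and 31.7% in F1r female. The 10 of chromosome 18 had 47.9%, 47.4%, 41.3% and 36.5%, and the 7 of chromosome 3 had 47.2%, 47.6%, 39.1% and 32.7%. Over all 886 unlisted chromosome 7 genes the medians were 49.0%, 49.3%, 49.3% and 48.1%. Pde2a, a phosphodiesterase of cyclic nucleotides (chr7:108570212-108661340), had 46.3%, 46.1%, 44.6% and 37.4% (log2 -0.78 ± 0.11, adjusted p = 0.000367). The call on Pde2a was lost without F1i male (adjusted p = 0.104), F1i female (0.228) or F1r female (0.0685).

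Of the 77 calls, 11 were kept without F1i male, 10 without F1i female, 70 without F1r male and 16 without F1r female. Only 9 were kept in each of the 4, while of the 20 paternal calls on the lists 19 were, Mest being the exception. Of the 16 maternal calls on the lists 12 were kept in each, the exceptions being Cobl, Ddc, Eif2c2 and Igf2, and of the 20 unlisted maternal calls 12 were. Of single bases outside the spans of list genes, 306 were called paternal, 201 of them on chromosome 7, and 78 were called maternal, 26 on chromosome 15 and 13 on chromosome 2. The number of bases tested on each chromosome is not given here. In windows of 10 Mb, chr7:30000001-40000000 held 50 paternal bases, and the medians of its 282 bases were 48.7%, 49.6%, 45.03% and 36.5%. In chr7:70000001-80000000 the medians of 84 bases were 48.2%, 46.4%, 52.0% and 33.6%, so that the low share was seen in the F1r female pool alone.

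**Figure D4:**
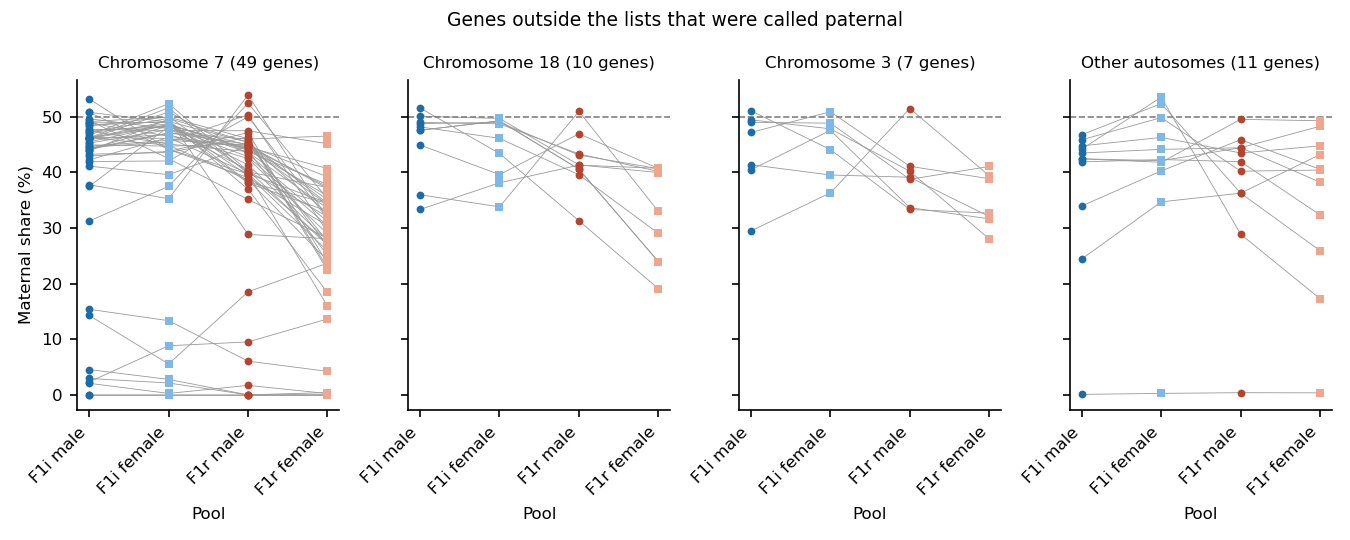
Maternal share (y axis, percent) of the 77 symbols outside the lists that were called paternal, in each of the 4 preoptic pools (x axis). Panels are by chromosome, with a grey line for each symbol. On chromosomes 7, 18 and 3 most lines lie close to 50% in the F1i pools and drop to medians of 31.7% to 36.5% in the F1r female pool, while 8 chromosome 7 genes stay low in all pools.

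The last comparison asked where the parental bias of the POA differed from that of the PFC. Whether both regions came from the same animals is not given in the labels. Of 10550 genes tested in both, 33 differed (0.313%), 13 being more maternal in the POA (0.123%) and 20 more paternal (0.190%). Among the 40 list members tested, 5 were more maternal in the POA and 2 more paternal. Of 28 list members called in the POA and tested in both regions, 23 were called in the same direction in the PFC, and of 92 calls outside the lists 19 were. The PFC call rate over all tested genes is not given here, so these counts have no background. The 92 include Neurabin, mKIAA0966 and Hm13, further listings of list genes.

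Begain, more paternal in the POA, had the smallest adjusted p. Against the POA shares above, its PFC pools had 40.2%, 41.7%, 43.9% and 46.2% maternal reads, above every POA pool (log2 difference -2.91 ± 0.18, adjusted p = 1.52e-11). Herc3 went the other way: PFC shares were 50.1%, 58.4%, 60.7% and 59.8%, all below the POA pools (log2 difference 2.69 ± 0.18, adjusted p = 6.66e-11). Copg2 had 74.8%, 75.6%, 83.0% and 74.1% in the PFC, also without overlap (3.16 ± 0.40, adjusted p = 2.76e-05). Ppp1r9a was 50.7% ± 0.904 in the PFC against 59.5% ± 5.85 (1.03 ± 0.13, adjusted p = 3.14e-05). These 4 differences passed when any 1 of the 8 pools was left out.

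Mest was less paternal in the POA, 28.9% ± 7.91 against 12.4% ± 2.41 (2.85 ± 0.57, adjusted p = 0.0123), though it passed in only 4 of the 8 omissions. It was lost without POA F1i male, POA F1i female, PFC F1i male or PFC F1r female, with adjusted p up to 0.181. The POA total of Mest joins a first SNP without maternal reads and later SNPs at 35.1%, near the overlap with Copg2. Its shares by SNP are not given here for the PFC. Rasgrf1 was more strictly paternal in the POA, 0.466% ± 0.218 against 2.91% ± 2.92 (-4.57 ± 0.66, adjusted p = 0.000188). This was lost without PFC F1i female (adjusted p = 0.112). In the transcript mKIAA0966 of Inpp5f the POA share of 67.6% stood against 35.0% ± 4.78 in the PFC on 20 to 25 reads (3.98 ± 0.73, adjusted p = 0.00597), lost without POA F1i female, PFC F1i female or PFC F1r female (adjusted p up to 0.0873). BC061511 was called maternal in the POA and not in the PFC, at 82.5% ± 7.85 against 28.3%, 37.0%, 81.6% and 68.0% in the PFC pools, which followed the B6 allele (4.23 ± 0.65, adjusted p = 0.000425, and 0.108 without PFC F1r female).

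The SNPs listed for a gene can differ between regions, and 3 differences did not pass on SNPs listed in both. Gnas had 20.1%, 33.7%, 66.7% and 77.2% in the PFC, which followed the B6 allele, against 60.4% ± 0.863 in the POA (1.27 ± 0.26, adjusted p = 0.0201). On the 2 SNPs listed in both regions the difference was 1.10 ± 0.27 (adjusted p = 0.0974). It was also lost without any 1 of 5 pools, all but POA F1r male and the PFC female pools, with adjusted p up to 0.302. Hm13 had 34.7% ± 7.74 against 6.76% ± 6.59 (7.21 ± 0.74, adjusted p = 6.35e-07), but on the 7 SNPs of both regions its POA mean was 10.6% and the difference did not pass (2.48 ± 0.98, adjusted p = 0.627). C030046E11Rik of chromosome 19 did not pass either (adjusted p = 0.936). In it and in Ppp1r9a the deepest transcripts of the regions shared no SNP, so the transcript with most reads over both regions was compared. The differences in Begain, Herc3, Copg2, Rasgrf1, Mest, Ppp1r9a, mKIAA0966 and BC061511 all passed on shared SNPs.

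**Figure D5:**
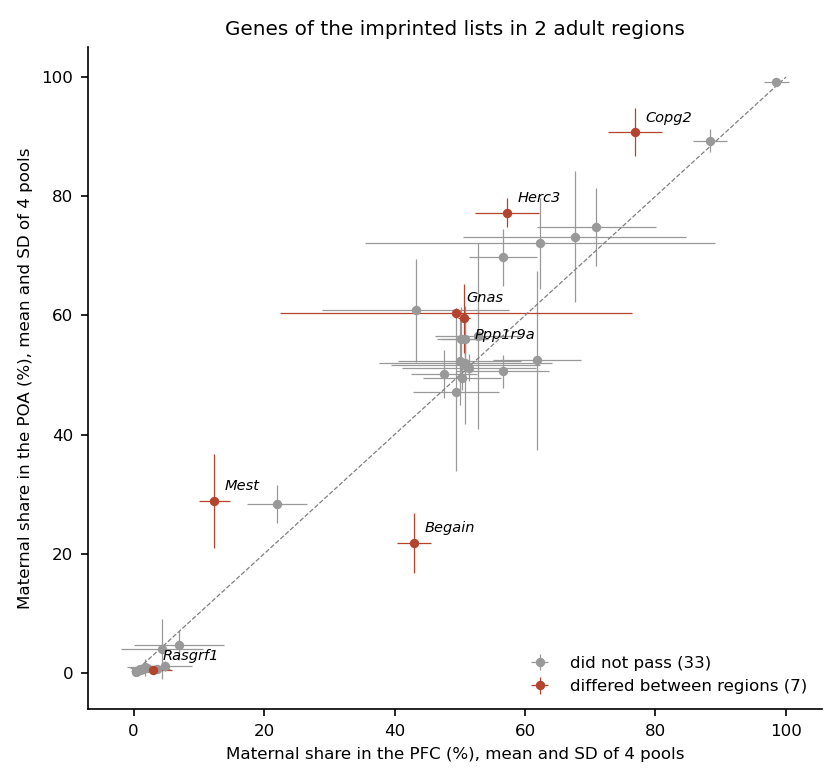
Mean maternal share in the POA (y axis, percent) against the PFC (x axis, percent) for the 40 list members tested in both regions, with SD over 4 pools in each direction and the line of equality dashed. Herc3, Copg2, Ppp1r9a, Gnas and Mest lie above the line and Begain and Rasgrf1 below it as the 7 genes that differed.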

How the data were processed

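The authors aligned reads of 36 cycles with Novoalign to mm9, per the submitters' processing notes, and deposited counts of reads with the CAST and the B6 base at each SNP for each pool, technical replicates summed. Every listed SNP has at least 1 read in every pool. The transcript with most reads stood for each gene and its SNP counts were summed after 1056 repeated listings were dropped. SNPs under 36 bases apart can count a read repeatedly. Strand is not told, so overlapping genes share counts. Among them are Snrpn and Snurf, Mest and Copg2, Nap1l5 and Herc3, Mcts2 and H13, Peg13 and Trappc9, Gnas and Nespas. Others are AF217545 and Copg2, AF365932 and Usp29, and Zrsr1 and Commd1.

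edgeR 4.0.16 (R 4.3.3) fitted a term per pool, the allele and allele by cross with the quasi-likelihood test on autosomes 1 to 19, for genes and for single bases; a fit over POA and PFC added region terms. DESeq2 1.42.0 was an alternative, as were other filters, scalings, SNP choices and omitted pools. Positions come from GENCODE vM1 on NCBIM37, read as 1-based; transcripts without an entry there were placed by matching the spacing of at least 5 SNPs, and of 3620 placements with an annotated gene 99.0% fell inside it. Intervals are Clopper-Pearson at 95%, and a count of 0 allows 3 counts. The fits were tested on simulated data.

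Members and lists were chosen with earlier results of these data known. Named genes are all tested list members, up to 10 unlisted calls per direction of smallest adjusted p with all 4 pools on one side, and the genes of smallest adjusted p that differed from the PFC; Hm13, mKIAA0966 and single SNPs outside that rule were named after their values were seen. Fisher's exact test on summed pools and the fit on SNPs of both regions were added after seeing the data. Of the genes that rule takes in, 1 is not reported here.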

Additional observations from a re-analysis of the deposited data

Results flagged for a closer look

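These 21 genes stand out because their parental bias differed between the POA and the PFC by a test of the difference itself, edgeR's allele by cross by region term at an adjusted p below 0.05. Each value is the log2 bias in the POA minus that in the PFC, positive where the POA was more maternal. Among list members, Begain differed by -2.91, Herc3 by 2.69, Copg2 by 3.16, Ppp1r9a by 1.03, Rasgrf1 by -4.57, Mest by 2.85 and Gnas by 1.27. Neurabin, another listing of Ppp1r9a, gave 1.03.

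Outside the lists the larger differences were Hm13 at 7.21, AJ517767 of chromosome 12 at 6.12, BC061511 4.23, 5830418K08Rik -2.96, mKIAA0966 3.98 and C030046E11Rik 2.82. By the same test on SNPs listed in both regions, Hm13 (2.48, adjusted p = 0.627) and C030046E11Rik (0.587, adjusted p = 0.936) did not pass. Nor did the list member Gnas (1.10, adjusted p = 0.0974). AJ517767 was 99.3% ± 0.494 maternal in the POA and 93.2% ± 4.84 in the PFC, a difference lost without PFC F1r female (adjusted p = 0.0507). 5830418K08Rik was 86.1% ± 6.19 maternal in the POA and 94.1% ± 2.18 in the PFC, and was lost without POA F1i female (adjusted p = 0.612).

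The remaining 7 were weaker. The neighbours Igsf5 at -1.63 and Pcp4 at -1.60 on chromosome 16 lay on opposite sides of 50% in the 2 crosses of each region. On chromosome 7 Lin37 gave -1.60 and Capns1 -1.33, and on chromosome 18 Aldh7a1 gave -1.50, Pcdhgb7 -1.20 and Pcdhga12 -1.77. Each of these last 5 was lost without 3 or more of the 8 pools. Capns1, a calpain subunit gene, had 1620 of 3210, 3535 of 7077, 1401 of 3796 and 1328 of 6645 maternal reads by POA pool, and a PFC mean of 49.5% ± 2.74.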

How the results depend on the processing

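The 133 gene calls moved most with the error model. DESeq2 called 57, a fit that kept X-linked genes 47 and Fisher's exact test on summed pools, which covers counting error alone, 287. Without 1 pool each the count ranged from 59 to 155: it was 62 without F1i male, 59 without F1i female and 62 without F1r female. The maternal share of the calls, 27.1% in the fit reported, was 47.4% with DESeq2, 46.8% with X-linked genes and 46.8%, 49.2% and 43.5% without those pools. The common dispersion was 0.00227 on autosomes and 0.0610 with X-linked genes. Filters, TMM factors, SNP choices, a robust prior, a sex term and stricter call rules gave 98 to 191.

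Of single bases, 725 were called, 329 with DESeq2, 409 with X-linked bases and 370 to 566 without 1 pool (421 without F1i male, 376 without F1i female, 370 without F1r female). Of region differences, 33 were called, 10 with DESeq2 and 12 to 90 without 1 pool. These were 21, 13, 90 and 17 without POA F1i male, F1i female, F1r male and F1r female, and 19 and 12 without PFC F1i female and F1r female.

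Among the 68 genes named in the POA no called gene changed sign. With DESeq2 5 lost the call: Cobl, Ddc (adjusted p = 0.830), Igf2 (0.0658), AK157178 (0.0654) and Pde2a (0.373). On the deepest SNP of each gene Cobl, Ddc and Ppp1r9a (0.141) lost it, Ube3a passed (0.00722) and 51 kept their result. The other named genes were not compared in that fit. Sex pairs the pools across the crosses, and the fit with an allele by sex term called 43 genes maternal and 148 paternal. By replicate number no paired analysis was possible because those numbers mark technical replicates, which the authors summed. Shares of genes with few reads are known roughly, and with 1 pool of each sex per cross the spread between animals was not measured.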
